A study of Mus musculus with 18 samples.

Results

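The RAD21 peak lists of 5 ChIP-seq libraries from unblocked cells were compared: 3 from the wild type cells of an Ig2b experiment and 2 from the control cells of a dCas9 experiment. They were chosen by label from the 18 samples of the series, 14 of which had a peak list. In both groups the cells were a v-Abl transformed pro-B line of mouse with the same labelled genotype: deletion of the JH segments, expression of dCas9 (catalytically dead Cas9, which binds its target and leaves it uncut), an Emu-Bcl2 transgene and RAG2 deficiency. Both groups were kept in 3 uM STI-571, an inhibitor of the Abl kinase, for 4 days. Neither group had the change studied in its own experiment, which was a deletion named for Ig2b in one and a guide RNA named for Sg1 in the other. The line is a single transformed cell type, and the labels do not say that replicates were separate cultures, so each p below measures only the spread between these libraries. The 5 lists held 294282 peaks on chromosomes 1 to 19 and X, which merged into 113940 regions where peaks overlapped by at least 1 bp.

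RAD21 is the subunit that closes the cohesin ring, which holds DNA strands together and extrudes chromatin loops. Extruding cohesin is loaded with the help of NIPBL and halts at sites bound by CTCF, a zinc finger protein, so RAD21 peaks are known to gather at CTCF sites. In cells of the B lineage this process brings distant parts of the Igh locus together, for V(D)J recombination during development and for class switch recombination in mature cells.

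Sequences are shown first for the strongest regions that held the core letters of the CTCF motif, searched as CCA, any 2 bases, AG, any 2 bases and GGC on both strands in the 300 bp around the region's centre. Of 8518777 tiles of 300 bp in the genome, 1.57% held this core. Capitals mark the core, and each sequence is read 5′ to 3′ on the strand of the core. The regions had a centre that occurs once in the genome (the central 31 bases, both strands counted) and are named by the nearest protein-coding gene, on mm9. The first 4 were in all 5 libraries, the next 2 in the 3 Ig2b wild type libraries alone, and the last 4 in both dCas9 control libraries alone.
Ppp6c, intergenic, chr2:39228813-39228872, minus strand: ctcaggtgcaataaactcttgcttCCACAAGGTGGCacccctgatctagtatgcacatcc
Uvrag, intergenic, chr7:106300031-106300090, minus strand: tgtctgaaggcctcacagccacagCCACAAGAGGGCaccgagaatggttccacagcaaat
Tnfrsf23, gene body, chr7:150892730-150892789, plus strand: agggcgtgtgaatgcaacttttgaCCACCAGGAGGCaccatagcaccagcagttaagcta
Brf1, promoter, chr12:114243407-114243466, plus strand: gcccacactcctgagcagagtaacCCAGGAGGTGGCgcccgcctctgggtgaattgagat
Map2k3, intergenic, chr11:60767478-60767537, plus strand: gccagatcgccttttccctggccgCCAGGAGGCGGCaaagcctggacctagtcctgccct
Ctsll3, intergenic, chr13:60927582-60927641, plus strand: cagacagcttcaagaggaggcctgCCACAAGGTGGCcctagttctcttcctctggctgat
Wdr41, gene body, chr13:95787933-95787992, plus strand: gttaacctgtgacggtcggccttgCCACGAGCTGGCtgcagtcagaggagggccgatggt
Cryl1, intergenic, chr14:58028148-58028207, minus strand: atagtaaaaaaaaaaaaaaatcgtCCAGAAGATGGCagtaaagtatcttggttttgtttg
Araf, promoter, chrX:20370540-20370599, minus strand: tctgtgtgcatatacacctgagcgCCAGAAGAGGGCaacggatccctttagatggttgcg
Opn5, gene body, chr17:42740528-42740587, minus strand: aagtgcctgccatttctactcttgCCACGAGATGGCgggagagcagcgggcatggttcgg
A match to these letters describes the sequence and is not a measured CTCF site.

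A second set shows the repeated DNA at the centre of regions found in the Ig2b wild type libraries alone. Both are strong Ig2b wild type regions on chromosome X, with the central 31 bases in capitals.
Gm17379, gene body, chrX:166438986-166439046, plus strand: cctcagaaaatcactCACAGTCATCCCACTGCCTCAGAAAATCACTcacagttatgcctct
Gm4297, intergenic, chrX:24197153-24197213, plus strand: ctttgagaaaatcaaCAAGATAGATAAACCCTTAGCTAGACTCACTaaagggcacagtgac
The central 31 bases occurred 2 times in the genome for the Gm17379 region and 9368 times for Gm4297.

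The lists differed in size before any site was compared. The Ig2b wild type lists held 50834, 56348 and 45697 peaks over 14.2, 15.2 and 11.6 Mb, against 58837 and 82566 peaks over 15.9 and 34.4 Mb in the dCas9 control lists. Both quantities did not overlap between the groups (exact permutation p = 0.2, the smallest that 3 against 2 allows, two-sided; 0.4 adjusted over 6 list properties). The shares of peaks within 5 kb of a start overlapped, at 21.5%, 23.4% and 19.6% in the Ig2b wild type lists and 18.0% and 25.6% in the dCas9 control lists (exact permutation p = 1). Peak names said that a control library was used for both dCas9 control lists and that duplicates were removed for the Ig2b wild type lists, which named no control. Experiment and calling therefore cannot be told apart, and read depth was unknown. The second dCas9 control library stood apart in window coverage, on the log2 scale defined below (9895 windows of 10 kb). The controls correlated at r = 0.147 with each other, a description with no test. The Ig2b wild type libraries correlated at 0.783 to 0.840, and libraries of different experiments at 0.292 to 0.643. Windows were kept by mean covered bp over the libraries, and 6498 were kept without the second control. The part of this choice in r was not tested. Peak overlap depended on direction: 82.7% to 85.5% of Ig2b wild type peaks overlapped the second control, against 63.3% to 69.5% for the first. Of second control peaks, 43.3% to 53% overlapped an Ig2b wild type list, against 53.5% to 60.6% of first control peaks.

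RAD21 was found in all 5 libraries at 27557 regions, 24.2% of the 113940. Among them 5503 were promoter regions (19.97%; within 5 kb of the start of a protein-coding gene), 10136 lay in gene bodies (36.8%) and 11918 were intergenic (43.2%). These shares were near those of all regions, which were 22.1% promoter, 34.0% gene body and 44.0% intergenic. Read the other way, 21.9% of promoter regions, 26.2% of gene body regions and 23.8% of intergenic regions were in all 5 libraries. The regions of all 5 had a median width of 547 bp against 251 bp for all regions. A region spans all its overlapping peaks, so regions with peaks of more lists are wider by construction. The CTCF core stood in 34.2% of the regions of all 5 (Wilson 95% interval 33.6% to 34.8%) against 18.8% of all regions. Intervals on shares of regions cover counting error only, not the spread between libraries. Peaks in these regions made up 59.7%, 54.5% and 66.0% of the Ig2b wild type lists, against 50.4% and 34.3% of the dCas9 control lists. The second control library covered 91.5% of the length of these regions, the first 55.8%, and the Ig2b wild type libraries 52.3%, 52.9% and 45.0%.

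**Figure D1:**
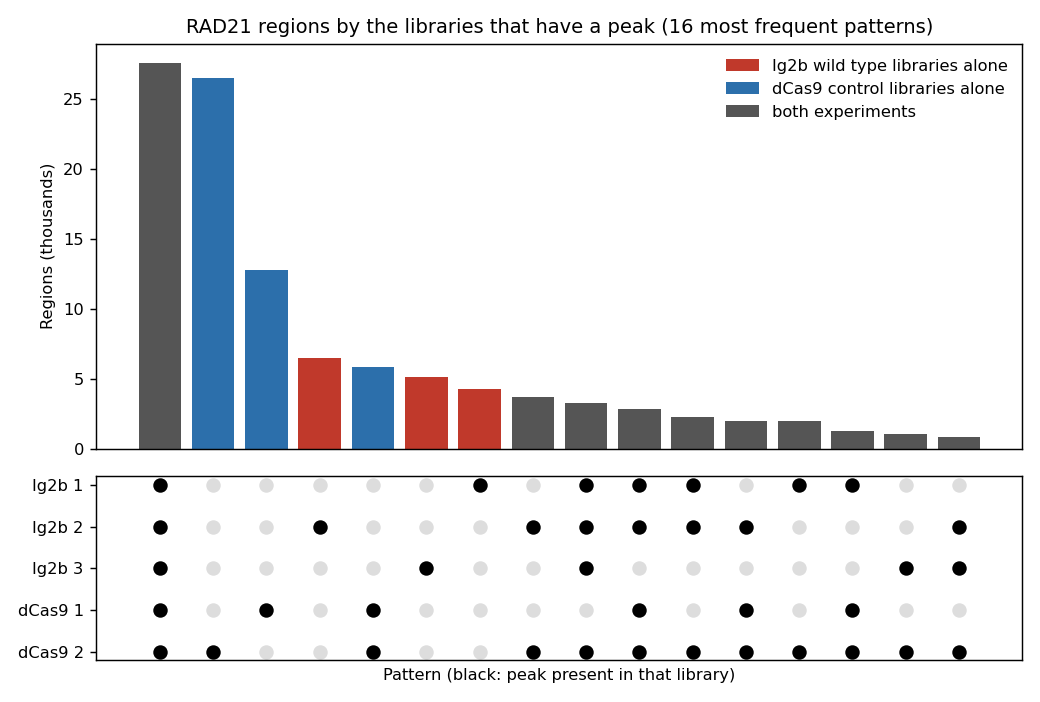
Bars give the number of merged RAD21 regions for the 16 most frequent patterns, and black dots below mark the libraries with a peak (Ig2b 1 to 3, wild type; dCas9 1 and 2, control). The tallest bar is the 27557 regions of all 5 libraries, followed by 26494 regions found in the second dCas9 control library alone and 12756 in the first alone.

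The named regions of all 5 libraries were those of highest mean rank over the 5 lists. The peak in the gene body of Chl1, a neural cell adhesion molecule, had a fold (MACS2's enrichment of a peak over its background, the authors' own value) of 27.2, 30.7 and 32.3 in the Ig2b wild type lists and 23.4 and 29.3 in the dCas9 control lists. The intergenic region nearest Ppp6c, a protein phosphatase gene whose CTCF core is printed above, had folds of 17.0, 18.4 and 16.3 in Ig2b wild type and 17.2 and 25.2 in dCas9 control. Among promoters, the highest ranked was that of Zkscan17, a zinc finger gene, with 15.5, 17.4 and 14.8 in Ig2b wild type and 15.0 and 19.3 in dCas9 control. The next was that of Brf1, a subunit of the RNA polymerase III factor TFIIIB, with 15.6, 17.7 and 14.7 in Ig2b wild type and 13.0 and 21.9 in dCas9 control. Cirbp, a cold-inducible RNA-binding protein, and Arhgap22 were the other promoters named, and Rdh13, Tnfrsf23 and Crebbp, a histone acetyltransferase, the other gene bodies. B3galnt2, Ly6c2 and Uvrag were nearest to the other intergenic regions. Folds of different lists are not on 1 scale, so they rank sites within a list and show no change between lists.

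Only 347 regions, 0.305% of all, were in the 3 Ig2b wild type libraries and neither dCas9 control library. They were 81.0% intergenic (281 regions; 95% interval 76.5% to 84.8%), 12.7% gene body (44) and 6.34% promoter (22), so promoter regions were 19.97% of the regions of all 5 and 6.34% here. The CTCF core was found in 4 of them (1.15%), and 83.3% (289 regions; 79.0% to 86.8%) had a centre that occurs more than once in the genome, against 10.2% of the regions of all 5. Chromosome X held 146 of the 347 (42.1%), against 4.88% of the regions of all 5. The X regions were clustered: 20 lay in the 1 Mb block from 4 to 5 Mb, 19 each in the blocks starting at 30 and 120 Mb, and 18 in the block starting at 31 Mb. Outside X the fullest block was on chromosome 4 at 146 to 147 Mb with 15. These blocks also held many regions of other patterns. The X blocks, in that order, had 460, 404, 290 and 468 regions of any pattern, of which 91, 73, 138 and 60 were in all 5. The chromosome 4 block had 557, with 61 in all 5. Of all 113940 regions 22.6% had a multi-copy centre and 4.83% lay on X.

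This composition depended on the second dCas9 control library. Without it, 3837 regions were in the Ig2b wild type libraries only, of which 24.4% were promoter, 40.2% intergenic, 14.6% multi-copy and 5.79% on X. Without the first control library there were 1111, with 80.6% intergenic, 83.5% multi-copy and 43.6% on X. The 748 regions shared by the 3 Ig2b wild type libraries and the first control library but not the second resembled the 347 in these values, with 80.1% intergenic, 84.6% multi-copy, 45.2% on X and a core in 0.535%. When each list was cut to its 45697 strongest peaks, 920 regions were in Ig2b wild type only, 63.4% of them intergenic, 55.4% multi-copy and 28.9% on X. Leaving out 1 Ig2b wild type library gave 650, 699 and 778 regions.

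The named regions of this set carried modest folds. The highest ranked was a gene body region of Grm8, a glutamate receptor, with folds of 7.65, 7.82 and 8.07 in the Ig2b wild type libraries and no peak in either control, and its centre occurred 7805 times in the genome. Intergenic regions nearest Acvr2a and Slitrk1 and a gene body region of Nlgn1, a synaptic adhesion gene, also had centres with 12846, 2795 and 12905 copies. Those nearest Gfra1, Xcr1 and Gmcl1l had 14, 33 and 22 copies. The exceptions with a single-copy centre were the promoters of Vmn2r114, Hist1h2bn and Rsbn1 (folds of 3.48 to 3.88), Gad2, which makes the GABA-synthesizing enzyme GAD65, and Map2k3, a MAP kinase kinase. The Map2k3 region, whose core is printed above, had folds of 7.58, 7.32 and 6.66 in the Ig2b wild type libraries, and 21845 bp separated it from the start of the gene. The Gad2 region had 5.32, 4.64 and 4.83.

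In both dCas9 control libraries and no Ig2b wild type library there were 5850 regions, 5.13% of all. They were 19.4% promoter (1134), 40.6% gene body (2378) and 40.0% intergenic (2338), close to the split of the regions of all 5. The CTCF core stood in 39.6% of them (2319 regions; 95% interval 38.4% to 40.9%), against 34.2% of the regions of all 5 and 1.15% of the Ig2b wild type regions. Their median width was 230 bp, 16.2% had a multi-copy centre and 1.64% lay on X. NIPBL peaks of both NIPBL control libraries overlapped 4.24% of them, against 5.19% of the Ig2b wild type regions, 17.8% of the regions of all 5 and 14.1% of all regions. Any overlap counted, which wider regions meet more easily. The core was searched in 300 bp at the centre, above this set's median width and below the 547 bp median of the regions of all 5. The part of width in the core shares was not tested. With lists of equal length the set held 1760 regions, 20.4% of them promoter and 43.7% with a core. Leaving out the second control library gave 19462 regions (14.7% promoter, core in 21.3%), and leaving out the first gave 32469 (28.1% promoter, core in 18.5%), so the count rests on both libraries being required.

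**Figure D2:**
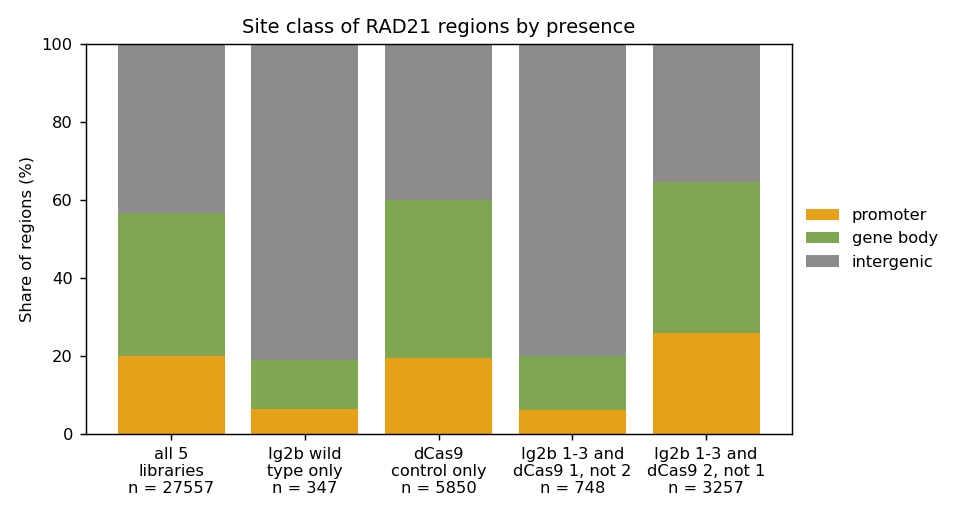
Stacked bars give the share of regions (%) in each site class for 5 presence patterns, with the number of regions below each. Promoter regions are 6.34% of the Ig2b wild type only regions and 19.4% of the dCas9 control only regions, and the 748 regions missing only from the second control library are 80.1% intergenic.

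**Figure D3:**
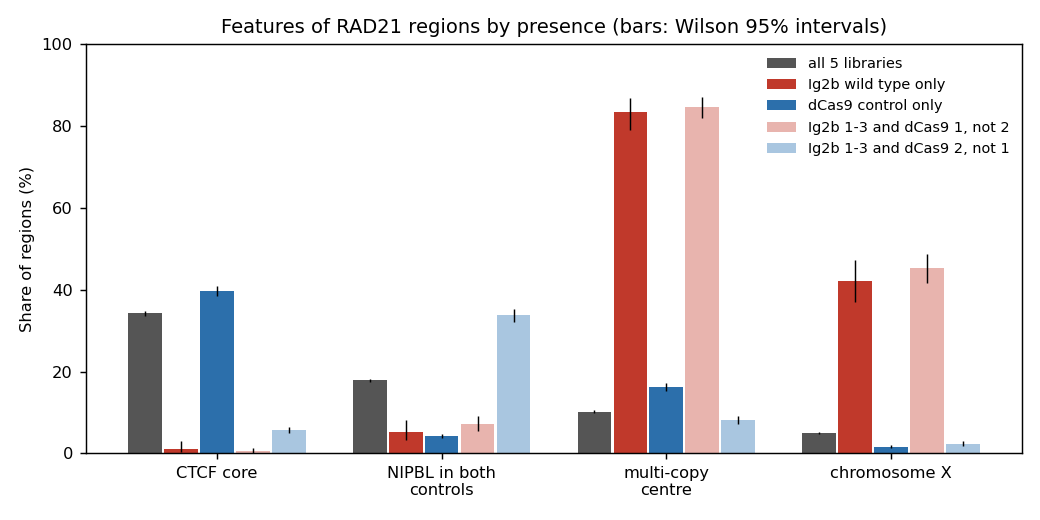
Bars give the share of regions (%) with a CTCF core, with NIPBL in both NIPBL control libraries, with a multi-copy centre and on chromosome X, for the same 5 patterns, and lines are Wilson 95% intervals over regions. The core was searched in 300 bp around each region's centre, whatever its width. Cores mark 34.2% of the regions of all 5 and 39.6% of the dCas9 control regions but 1.15% of the Ig2b wild type regions, while multi-copy centres mark 83.3% of the Ig2b wild type regions and 84.6% of the 748 regions missing only from the second control library.

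Several of the strongest dCas9 control regions had centres with many copies. The intergenic region nearest Rfc3, a clamp loader subunit, had folds of 12.5 and 15.6 in the control libraries and no peak in the Ig2b wild type libraries, and its centre occurred 1338 times in the genome. The region nearest Galnt5 had folds of 9.43 and 8.50 and a centre with 1343 copies. The promoter region of Phf21a, a histone reader of the LSD1 complex, had 11.9 and 10.9 and a centre with 4 copies. In libraries that did not choose the regions, all 3 had a peak in both dCas9 block libraries and in 0 of 3 Ig2b deleted libraries. This pattern was found in 30.8% of the dCas9 control regions. Reads from repeats cannot be placed at 1 copy, and the part of read placement in these peaks was not tested.

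Other named dCas9 control regions were spread over all classes. Wdr41, whose gene body region carries the printed core in a single-copy sequence, had folds of 5.84 and 14.3. Araf, a RAF-family kinase gene on X, had a promoter region with 7.47 and 5.59. The promoter region at Ccdc101 had folds of 7.57 and 4.95, and the Rps2-ps5 region 5.86 and 6.96 with 1378 copies of its centre. Gene body regions of Smok4a and Abca17 had 4 and 6 copies of their centre, and that of Traf3ip3 had 1343. The region nearest Mki67, the Ki-67 proliferation marker, lay 578095 bp from its start with a single-copy centre and folds of 8.79 and 8.07. That region had a peak in both dCas9 block libraries and in 1 Ig2b deleted library. The other regions of this paragraph had a peak in both block libraries and in no deleted library.

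A further 3257 regions were in the 3 Ig2b wild type libraries and the second control library but not the first. They were 26.01% promoter, with a median width of 629 bp, a core in 5.68% and NIPBL from both NIPBL controls over 33.7%. Of the 26494 regions in the second control library alone, 30.0% were promoter and NIPBL from both controls overlapped 17.2%, against 14.1% of all regions. The 12756 regions of the first control library alone were 60.9% intergenic and 55.9% multi-copy, with 1.02% under NIPBL.

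The promoter boundary of 5 kb cut through a continuous range. Regions of all 5 numbered 704 at 4 to 5 kb from a start and 645 at 5 to 6 kb, dCas9 control regions 150 and 168, and Ig2b wild type regions 6 and 2. Within 1 kb of a start lay 8.74% of the regions of all 5, 1.44% of the Ig2b wild type regions and 5.47% of the dCas9 control regions.

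Sharing followed the rank of a peak in its own list. A peak was called strong at or above percentile 50 of its list by fold, which fell at a fold of 4.10, 3.95 and 4.10 in the Ig2b wild type lists and 4.41 and 4.41 in the dCas9 control lists. Of the strong peaks, 91.1%, 86.4% and 93.2% of the Ig2b wild type lists lay in regions of all 5, against 73.4% and 63.4% of the dCas9 control lists. Of the weak peaks it was 28.2%, 22.6% and 38.8% in Ig2b wild type, against 27.5% and 5.21% in dCas9 control. Among the strongest 20% of each list, 99.9%, 99.9% and 99.9% were in regions of all 5 in Ig2b wild type, and 95.4% and 99.2% in dCas9 control. In the weakest 20% the shares were 16.3%, 12.2% and 23.7% in Ig2b wild type, against 22.0% and 4.02% in dCas9 control. The second control list, the longest, had the lowest share among weak peaks, and the part of list length in these shares was not tested.

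**Figure D4:**
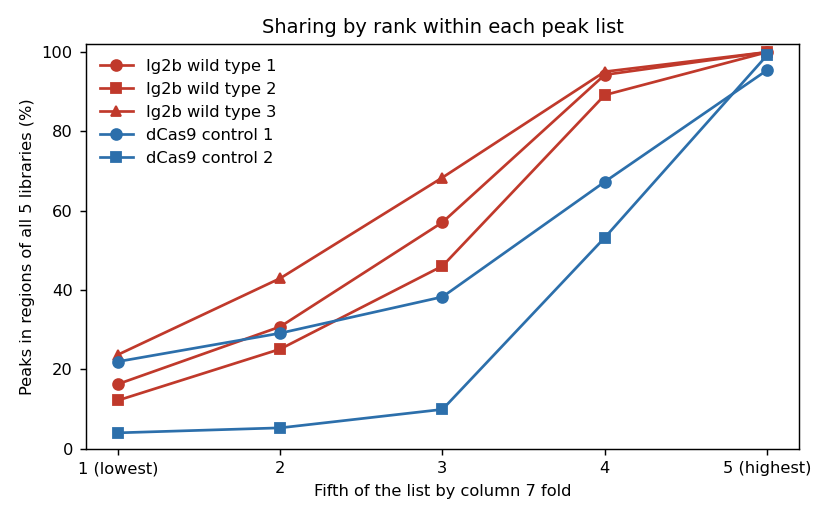
Lines give the share of peaks (%) in regions of all 5 libraries for each 20% bin of a list ranked by fold, with 1 line per library (red, Ig2b wild type; blue, dCas9 control). All lines reach 95.4% or more in the highest bin, and the second dCas9 control library is lowest in the 4 other bins, with 4.02% in the lowest.

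Strong peaks were 21.1%, 24.8% and 22.8% of the Ig2b wild type peaks in Ig2b wild type only regions, and 19.5% and 24.1% of the dCas9 control peaks in dCas9 control only regions. When a library had to cover 50% of a region, these averaged 39.3% in Ig2b wild type only and 54.7% in dCas9 control only regions. In regions of all 5, strong peaks were 76.4%, 79.3% and 70.6% of the Ig2b wild type peaks and 72.8% and 92.4% of the dCas9 control peaks. The promoter share of strong peaks was below that of weak peaks in each of the 5 lists: 19.3%, 20.7% and 18.6% of strong against 23.8%, 25.99% and 20.5% of weak in Ig2b wild type, and 17.0% and 21.9% against 18.95% and 29.4% in dCas9 control. This was not tested.

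Whether the sets recur was measured in 5 RAD21 libraries that had no part in choosing them: Ig2b deleted (n = 3) and dCas9 block (n = 2), which differ from the unblocked cells at Igh. Of the regions of all 5, 98.4%, 99.5% and 95.6% had a peak in Ig2b deleted cells and 98.9% and 99.1% in dCas9 block cells. Of the dCas9 control regions, 24.2%, 40.8% and 12.1% had a peak in Ig2b deleted cells, against 89.0% and 78.6% in dCas9 block cells. The groups did not overlap, with means of 25.7% ± 14.4 (SD, n = 3) and 83.8% ± 7.30 (SD, n = 2), a difference of -58.1 points (exact permutation p = 0.2, two-sided, the smallest possible; 0.4 adjusted over both sets). Without the first control library to choose the regions this difference was -25.2 points, and without the second -33.2 points. With lists matched in length it was -42.4 points. The Ig2b deleted lists held 60032, 75597 and 44729 peaks, against 82688 and 79842 in the dCas9 block lists. The part of list length in the remaining difference was not tested. Of the Ig2b wild type regions, 55.0%, 65.1% and 34.9% had a peak in Ig2b deleted cells, against 44.1% and 18.7% in dCas9 block cells. These values overlapped, with means of 51.7% ± 15.4 (SD, n = 3) and 31.4% ± 17.9 (SD, n = 2) (exact permutation p = 0.4; 0.4 adjusted). Their difference of 20.3 points was 13.1, 12.04 and 9.34 without Ig2b wild type library 1, 2 and 3. It was 9.51 without the first control library and 15.5 without the second. With lists matched in length the difference was 38.4 points. At a −log10 q of at least 3, which left 34 regions, it was 55.9 points (exact permutation p = 0.2 for both, two-sided, the smallest possible). Among the 58 Ig2b wild type regions with a single-copy centre the groups did not overlap, at 46.6%, 72.4% and 34.5% in Ig2b deleted cells against 31.03% and 20.7% in dCas9 block cells (exact permutation p = 0.2, two-sided). The difference of the dCas9 control regions by class was -57.2 points for promoters, -60.1 for gene bodies and -56.6 for intergenic regions.

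**Figure D5:**
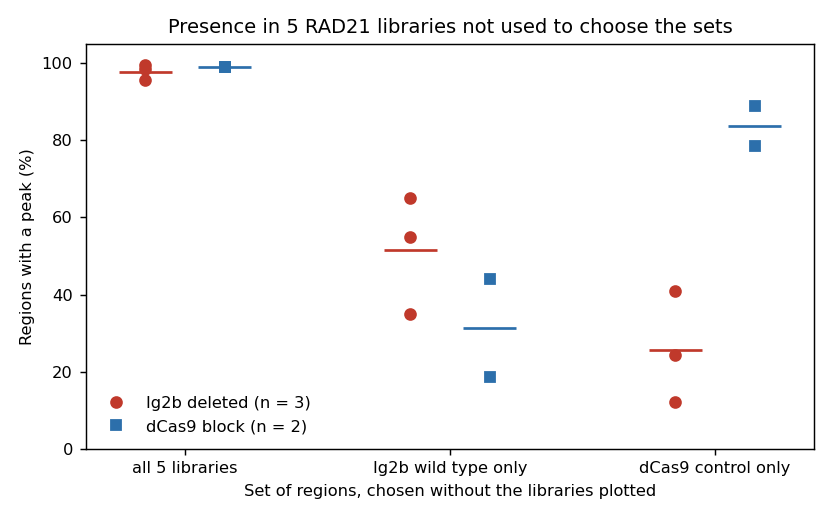
Points give the share of regions (%) with a peak in each of 5 RAD21 libraries that did not define the sets, with horizontal lines at the means (red circles, Ig2b deleted; blue squares, dCas9 block). For the dCas9 control regions the deleted libraries lie at 12.1% to 40.8% and the block libraries at 78.6% and 89.0%, while for the Ig2b wild type regions the points overlap.

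The held-out libraries share the peak calling of their own experiment, so experiment and calling cannot be told apart here either. Over all 10 RAD21 libraries, 25792 regions (93.6% of the regions of all 5) had a peak in every one. Of the dCas9 control regions, 1803 (30.8%) had a peak in both block libraries and no deleted library. Of the same set, 1 had the reverse pattern and 157 (2.68%) had no peak in the 5 held-out libraries. A core stood in 42.2% of the 1803, against 39.6% of all dCas9 control regions. Of the Ig2b wild type regions, 28 (8.07%) had a peak in the 3 deleted libraries and no block library, 22 intergenic and 6 in gene bodies. Here too 1 had the reverse pattern, and 43 (12.4%) had no peak in the 5 held-out libraries. The shares of these patterns over all regions were not computed, and the block lists were longer than the deleted lists. The 8 of the 28 with a single-copy centre were chosen after their values were seen. They were a pair in Gad2 and 1 each nearest Hnf4g, Ptger3, Ano10, Map2k3, Xlr and 3830403N18Rik. The intergenic ones lay 21845 bp (Map2k3) to 370463 bp (Hnf4g) from the start of the gene. The core stood in the Map2k3 region only.

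The amount of RAD21-covered sequence was then compared in 10 kb windows on the scale log2(covered bp + 500). Of 9895 windows, 0 passed an adjusted p of 0.05 in either direction (limma, Benjamini-Hochberg; percent called 0), and at an unadjusted p below 0.05 there were 74 higher and 1044 lower in Ig2b wild type. The median difference of all windows was -0.42 on this scale, in the direction of the list sizes, and under quantile normalization (median -0.02) 310 were higher and 373 lower at that unadjusted level, with 0 called. With the first control library left out, so that the second stood alone and was assumed to vary like the others, 384 windows were called higher and 6418 lower. With the second left out, 0 were called.

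The windows of lowest p were led by one near Zfp825, a zinc finger gene (chr13:74660001-74670000). It had 0, 0 and 0 covered bp in the Ig2b wild type libraries, against 2389 and 2135 bp in the dCas9 control libraries, and 0, 0 and 0 bp in Ig2b deleted cells against 2422 and 2075 bp in dCas9 block cells. The groups were fully apart, with a fitted log2 difference of -2.46 ± 0.22 (SE) and an adjusted p of 0.423 in limma. In 1 fit over the 10 RAD21 libraries its adjusted p was 0.00185, the single window called there. The peak within it had a centre with 31 copies in the genome and folds of 9.75 and 8.28 in the controls. The window near Bcl2l11, the gene of the pro-apoptotic protein BIM, held 269, 251 and 191 bp in Ig2b wild type, against 1986 and 1575 bp in dCas9 control. It held 541, 953 and 209 bp in Ig2b deleted cells, against 2722 and 1958 bp in dCas9 block cells. Windows near Hacl1, Med13l and Gm4968 were the others with lower coverage in Ig2b wild type, at log2 differences of -1.88, -1.82 and -1.63 (adjusted p 0.423 each, limma). In the other direction were windows near H60c, an NKG2D ligand gene, at 1.38, Rex2 at 1.70, and Gm3750, Gm2784 and Gm2790 on X at 1.43, 1.45 and 1.42 (adjusted p 0.423 each, limma). The Gm3750 window had 729, 836 and 1004 bp in Ig2b wild type, against 0 and 0 bp in dCas9 control, but 335, 363 and 0 bp in Ig2b deleted cells, against 230 and 0 bp in dCas9 block cells. The Rex2 window held 506, 2183 and 199 bp in Ig2b deleted cells, against 1435 and 379 bp in dCas9 block cells. In the held-out libraries the groups overlapped in each of the 5 windows higher in Ig2b wild type and did not overlap in the 5 lower ones. The share of all windows without such overlap was not computed. The dCas9 block lists were longer than the Ig2b deleted lists, so this describes the named windows only.

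At the level of genes, 5507 of 22350 protein-coding starts (24.6%) had a peak of every library within 5 kb. There were 15 starts with peaks of the Ig2b wild type libraries only (0.0671%) and 625 with peaks of the dCas9 control libraries only (2.8%), while 9314 had none. The 15 included Hist1h2bh and Hist1h3f, histone genes of a cluster of near-identical copies, Defa26 of the defensins, the drug-efflux transporter Abcg2, the kinase Mos, and Phf3, and 7 of the 15 had a Gm name.

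Early B lineage genes were largely shared: 16 of 19 matched genes had a peak of all 5 libraries at the start, against 24.6% of all starts. At Rag1, the recombinase subunit, folds were 11.4, 10.8 and 10.9 in Ig2b wild type and 10.1 and 17.0 in dCas9 control. At Pax5, the factor that fixes B cell identity, they were 6.77, 6.60 and 6.80 in Ig2b wild type and 6.58 and 6.84 in dCas9 control. At Ebf1, which specifies the lineage, they were 4.99, 5.06 and 5.80 against 5.54 and 9.41. Outside that set, Rag2 had peaks in the 3 Ig2b wild type libraries and the second control library, and Irf4 in 3 libraries, and neither had one in the first control library.

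Of the genes linked to v-Abl withdrawal and STAT5, 12 of 15 had peaks of all 5 libraries, against 24.6% of all starts. Cish, a STAT5-induced feedback inhibitor, had folds of 12.1, 14.3 and 10.5 in Ig2b wild type and 10.5 and 18.4 in dCas9 control, and Ccnd2, a G1 cyclin, 14.5, 14.1 and 11.6 against 10.8 and 18.8. Stat5a, Stat5b and Ccnd3 were the exceptions. Among 14 cohesin and CTCF genes, 5 (35.7%, against 24.6% of all starts) had peaks of all libraries: Smc3, Stag2, Pds5a, Pds5b and Ctcf. The starts of Nipbl (3 Ig2b wild type libraries and 1 control), Rad21 (1 and 1), Wapal (1 and 1), Mau2 (1 and 2), Esco1 (3 and 1), Esco2 (2 and 2) and Smc1a (0 and 1) were covered in part, and Stag1 and Hdac8 in none.

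In the lists of other cells, 1 of 9 T cell genes (Lck; 11.1%), 1 of 8 myeloid genes (Elane; 12.5%) and 3 of 8 erythroid genes (Klf1 and Hba-a1 among them; 37.5%) had peaks of all 5 libraries, and 6 of 10 housekeeping genes did, against 24.6% of all starts. Of the T cell genes, Gata3 had peaks in 2 Ig2b wild type and 2 control libraries and Cd3d in 3 and 1, and the other 6 had none. Of the myeloid genes, Itgam had peaks in 3 Ig2b wild type libraries and 1 control library, Fcgr3 in 2 and 2 and Csf1r in 0 and 1, and the other 4 had none. The other 5 erythroid genes had no peak in any of the 5 libraries. A peak of RAD21 is no measure of a gene's expression. No gene of the 7 lists was in the Ig2b wild type only or the dCas9 control only starts.

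At Igh, on chromosome 12, the regions of all 5 libraries were 7 of 16 in the 100 kb 3′ flank, 2 of 22 over the constant genes, 9 of 30 between Ighm and the first VH gene and 176 of 732 over the VH genes, against 24.2% of regions in the whole genome. The VH segment, which held 732 of these regions, had 8 regions in Ig2b wild type only and 19 in dCas9 control only, and the 3 smaller segments had 0 of either. Over the genome these sets were 0.305% and 5.13% of regions. The 3′ flank region at chr12:114459437-114461984 had folds of 12.7, 13.1 and 10.9 in Ig2b wild type and 11.7 and 19.5 in dCas9 control, and all 7 flank regions recurred in the 5 held-out libraries. Between Ighm and the VH genes, 5 of the 9 regions held a CTCF core, and over the VH genes 34 of 176. In the 3′ flank 0 of the 7 regions held one in the 300 bp searched around the centre, and over the constant genes 0 of the 2. Sequence outside those 300 bp was not searched, and the flank region at chr12:114459437-114461984 was 2548 bp wide. These counts therefore do not show that the regions lack a core. Over the genome a core stood in 34.2% of the regions of all 5 and in 18.8% of all regions.

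The 2 shared regions of the constant segment were weaker. That at chr12:114551857-114553399 had folds of 4.51, 4.82 and 4.07 in Ig2b wild type and 3.73 and 6.62 in dCas9 control, and it had a peak in both dCas9 block libraries and in 0 of 3 Ig2b deleted libraries. The labels do not give the place of the deletion, so whether it covers this region is unknown. The region at chr12:114559099-114560167 had 3.70, 4.53 and 3.89 in Ig2b wild type and 3.50 and 6.34 in dCas9 control, and recurred in the 5 held-out libraries. The covered share of the constant segment was 1.17%, 1.66% and 0.751% in Ig2b wild type, against 0.362% and 8.86% in dCas9 control, so the controls lay on both sides of the Ig2b wild type values. Over the VH genes it was 6.16%, 6.06% and 5.27% in Ig2b wild type, against 5.59% and 8.45% in dCas9 control, which also overlapped.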

How the data were processed

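RAD21 ChIP-seq peak lists of 5 libraries were analysed, with 5 other RAD21 and 2 NIPBL control lists for comparison, and the inputs were not used here. The submitters' processing notes name Bowtie2 2.2.8, SAMtools 1.8 and MACS2 as tools and mm9 as the build. The version of MACS2 and its settings are not given in the sources used here. Each deposited list is a table of 9 columns for 1 library. The fold is a ratio made by the authors and was used to rank peaks within a list. The deposited −log10 p and −log10 q are those of the authors' caller, and the −log10 q served in an alternative. The deposited score equalled the whole part of 10 times −log10 q in 99.99% of peaks and was not used. Read depth is unknown.

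Peaks were merged into regions (at least 1 bp), classed on mm9 with GENCODE vM1 protein-coding genes, and compared by presence. Covered bp was tested in 10 kb windows averaging 500 bp or more with limma 3.58.1 in R 4.3.3, a two-sided test without normalization. It was checked on simulated data with independent values, the same spread in every window and no library effect. That check does not cover a library that stands apart, as the second control did in window coverage. Single values had exact permutation tests over libraries. Python 3.11.15 ran the other steps, with scipy 1.17.1, numpy 2.4.6, matplotlib 3.10.9 and pandas 2.3.3. Named were the 4 regions of highest mean rank per set and class (Gm and Rik names passed over), the 5 windows of lowest p per direction, the listed genes and the Igh regions. Printed sequences followed the same ranking among single-copy centres with a core, chosen after the data were seen. The alternatives were lists matched in length, a stricter q, overlap, merging and start distance, all annotated genes, a stricter strong class, quantile normalization, other added bp, no filter, windows of 50 kb, 1 fit over 10 libraries, the replicate block and leaving out each library. Single-copy centres and leaving out X were added after seeing the data. Members and lists were chosen with earlier results of these data known. Some single genes and sequences are not reported here.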

Additional observations from a re-analysis of the deposited data

Results flagged for a closer look

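Peaks were also called on chromosome Y, which the comparisons did not use. The Ig2b wild type lists held 78, 94 and 84 Y peaks and the dCas9 control lists 68 and 35.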

How the results depend on the processing

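Of 152 alternative values, 91 were rated the same, 61 moved and 0 reversed. Only the held-out differences have a sign that could reverse, since counts and shares have none. Lists matched in length gave 920 Ig2b wild type only regions (promoter share 17.9%, strong share 13.0%) and 1760 dCas9 control only regions (strong share 10.4%). A −log10 q of at least 3 gave 16107 regions of all 5 (promoter 19.2%) and 34 Ig2b wild type only (promoter 2.94%, strong 14.5%). Requiring 50% of a region to be covered gave 7176 regions of all 5 (promoter 15.7%, strong 92.5%), a strong share of 39.3% in Ig2b wild type only, and 8984 dCas9 control only regions (promoter 18.1%, strong 54.7%). Merging peaks within 1 kb gave promoter 20.6% and strong 69.3% in all 5, 206 Ig2b wild type only regions (strong 20.2%) and promoter 18.0% in dCas9 control only. A start distance of 1 kb gave promoter shares of 8.74% in all 5, 1.44% in Ig2b wild type only and 5.47% in dCas9 control only, and all annotated genes 27.2%, 16.7% and 24.6% in the same sets. Strong as the top 25% gave strong shares of 48.3%, 1.42% and 1.23% in those sets. Single-copy centres left 58 Ig2b wild type only regions (promoter 10.3%) and promoter 20.6% in all 5. Leaving out X left 201 Ig2b wild type only regions and promoter 20.6% in all 5. Leaving out 1 library at a time gave 28206 to 30868 regions of all 5 (promoter 19.5% to 20.6%, strong 75.1% to 77.8%), 650 to 3837 Ig2b wild type only (promoter 6.03% to 24.4%, strong 15.7% to 24.8%) and 6400 to 32469 dCas9 control only (promoter 14.7% to 28.1%, strong 11.05% to 26.5%). The held-out difference then ran from 9.34 to 15.5 points for Ig2b wild type only regions and from -56.6 to -25.2 points for dCas9 control only regions. Lists matched in length gave held-out differences of 38.4 and -42.4 points for these sets, and a −log10 q of at least 3 gave 55.9 and -56.6 points. Windows called ran from 0 to 384 higher and from 0 to 6418 lower, and the fit over 10 libraries called 0 higher and 1 lower. The replicate block called 0 windows in both directions (unadjusted 57 higher and 126 lower); same-numbered libraries correlated at 0.03 and 0.25 in their deviations, and only 2 numbers are shared, so the numbers were not taken to pair the libraries. The Zfp825 window had an adjusted p of 0.423 in limma, 0.00185 over 10 libraries and 0.0966 with the block. The causes were not tested.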
